A study of Mus musculus with 65 samples.

Results

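The Tal1, Lmo2 and Ldb1 loci were described as 3 windows of mouse build mm9: chr4:114650000-114800000 for Tal1 (150 kb), chr2:103650000-103850000 for Lmo2 (200 kb) and chr19:46050000-46170000 for Ldb1 (120 kb). Every peak of the 9 deposited peak sets with at least 1 bp in a window was a member. This gave 130 peaks of 143220 in all, with 44 at Tal1, 57 at Lmo2 and 29 at Ldb1. The choice of the windows used the position of the genes and no measured value. The peaks came from chromatin immunoprecipitation followed by sequencing (ChIP-seq) in G1E-ER4, a mouse erythroblast line that lacks endogenous GATA1 and carries GATA1 fused to the ligand-binding domain of the oestrogen receptor. The LDB1-AID and SMC3-AID sublines carry an auxin-inducible degron on LDB1 or on the cohesin subunit SMC3, a tag through which auxin leads to degradation of the protein. LDB1-AID cells gave LDB1, YY1, RAD21 and CTCF sets when untreated and an LDB1 set after 4 h of auxin, each combined by the authors from 2 replicates. SMC3-AID cells gave LDB1 and RAD21 sets when untreated and after 4 h of auxin, each combined from 3 replicates. Whether a subline is 1 clone, and whether oestradiol was given, is not stated in the labels.

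TAL1 is a basic helix-loop-helix factor that binds E-boxes as a dimer with an E protein. LMO2 is a LIM-only protein that binds no DNA and bridges TAL1 to LDB1, and LDB1 self-associates, so that complexes at separate sites can be joined. With GATA1 these proteins form the main activating complex of erythroid genes, and Tal1 and Lmo2 are known to be controlled by distal enhancers that the complex itself occupies. CTCF binds DNA at loop anchors, where cohesin, seen here through its subunit RAD21, accumulates. YY1 is a zinc-finger protein found at active promoters and enhancers.

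The sequences of the LDB1 sites were not analysed here, since no mm9 sequence was used. The promoter sequences that RefSeq (build GRCm38.p6) pairs with the genes are given in their place. They show which promoters hold the GATA motif, a sequence that GATA1 can bind. Whether GATA1 or LDB1 was bound at these promoters was not tested. The table held 5 start sites for 2 of the genes, Tal1 and Ldb1. In the 250 bases before each start, the GATA motif was searched on both strands as AGATAA or TGATAA. The same letters with a final G, AGATAG or TGATAG, counted too. It was present at 2 of the 5 starts, against 26.5% of 32851 promoters. The first Tal1 start had 1 match, the first Ldb1 start and the second start of each gene had none, and the third Ldb1 start had 2. At least 2 matches were present in 6.4% of all promoters. The E-box CANNTG occurred once, before the third Ldb1 start, and was present in 66.2% of all promoters. The joint motif, CTG followed by 7 or 8 bases and AGATAA or TGATAA, occurred in none of the 5 and in 0.846% of all promoters. The 2 promoters with a GATA match are printed from 5′ to 3′ on the strand of the gene, with the match in capitals. Their positions are of another build than the peaks and cannot be set beside them, so no peak was placed on a promoter.
Tal1, the first start (GRCm38.p6, plus strand, chr4:115056176-115056425): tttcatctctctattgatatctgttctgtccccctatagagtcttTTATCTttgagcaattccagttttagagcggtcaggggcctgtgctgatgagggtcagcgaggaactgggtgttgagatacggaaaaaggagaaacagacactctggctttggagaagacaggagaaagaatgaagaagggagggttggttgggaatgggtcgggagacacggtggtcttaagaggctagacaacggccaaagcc
Ldb1, the third start (GRCm38.p6, minus strand, chr19:46037071-46037320): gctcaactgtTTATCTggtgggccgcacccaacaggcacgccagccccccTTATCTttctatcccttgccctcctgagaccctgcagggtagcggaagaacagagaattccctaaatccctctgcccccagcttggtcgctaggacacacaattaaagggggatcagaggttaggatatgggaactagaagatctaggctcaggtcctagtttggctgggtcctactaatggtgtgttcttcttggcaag
In all 3 matches the capitals read TTATCT, which is AGATAA on the opposite strand. They began 205 bases before the first Tal1 start, and 240 and 200 bases before the third Ldb1 start.

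All peaks were 400 bp wide and carried no score, so a site was either called or not called in a set. The read depth and the height behind each call are unknown. A missing call can therefore reflect depth or the calling threshold as well as occupancy, and these cannot be told apart in these lists. Since the replicates had been combined, the values below have no replicate error and no test between conditions was possible. Shares are given with exact 95% binomial (Clopper-Pearson) intervals, which cover counting error only. For a count of 0 the limit of 3 counts of the total is given as well. Each share stands beside the share over all peaks of the same set on the main chromosomes.

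LDB1 was bound at all 3 loci, and most densely at Lmo2. Untreated LDB1-AID cells had 8 LDB1 peaks in the Lmo2 window, 4 in the Tal1 window and 1 in the Ldb1 window. Untreated SMC3-AID cells had 7, 3 and 1. Each LDB1 peak of the other 3 LDB1 sets overlapped one of these 13. After auxin this held for 3 of 3 peaks of LDB1-AID cells, against 80.2% of all, and in SMC3-AID cells 9 of 9 auxin peaks overlapped an untreated peak of the same cells, against 92.8%. In total the loci held 13 LDB1 sites, lettered here from low to high coordinate. With the main chromosomes divided end to end into bins of the length of each window, 1.02% of 200 kb bins had 8 or more LDB1 peaks of LDB1-AID cells. At least 4 were present in 4.94% of 150 kb bins, and at least 1 in 22.9% of 120 kb bins. The Lmo2 window thus lay among the densest bins of its length and the Ldb1 window did not. The order Lmo2, Tal1, Ldb1 was the same in the SMC3-AID set, where 0.705%, 6.42% and 20.9% of bins reached the count of the window.

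**Figure D1:**
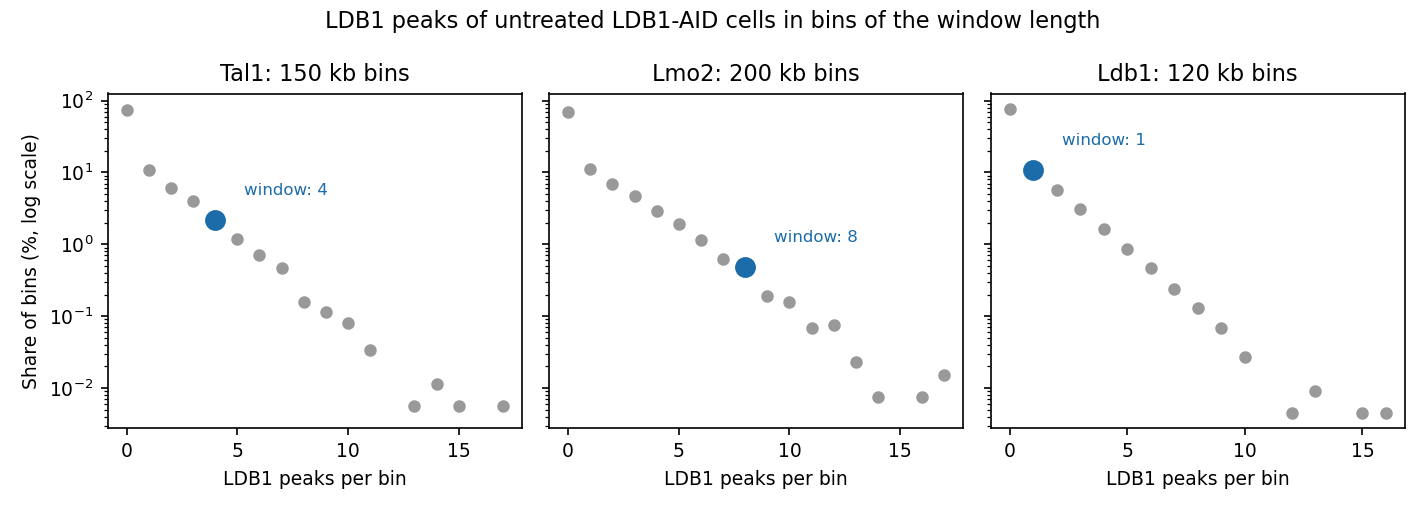
Share of bins (%, log scale) by the number of LDB1 peaks of untreated LDB1-AID cells per bin, for bins of 150, 200 and 120 kb; each grey point is the share of bins with that number and the larger blue point marks the number in the window. The Lmo2 window, with 8 peaks, sits furthest to the right, and the Ldb1 window, with 1, is next to the empty bins.

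The spacing of the sites differed between the loci. The 4 Tal1 sites spanned 55.5 kb as 2 close pairs. Sites A and B were 8.47 kb apart, C and D were 7.85 kb apart, and 39.2 kb lay between B and C. The 8 Lmo2 sites spanned 94.4 kb. They stood in pairs as well, with 6.21 kb between A and B, 5.7 kb between C and D, 3.99 kb between E and F and 0.872 kb between G and H. The gaps between these pairs were 18.5, 33 and 26.1 kb. Tal1 D and Lmo2 F were called in untreated LDB1-AID cells and in no other LDB1 set. The pair of C and D at Tal1 and that of E and F at Lmo2 thus rest on that set alone. The single Ldb1 site was isolated, and its nearest LDB1 peak lay 278 kb away. Over the 13 sites the median distance to the nearest other LDB1 peak was 6.21 kb, against 14.9 kb over all 10729 LDB1 peaks of LDB1-AID cells.

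**Figure D2:**
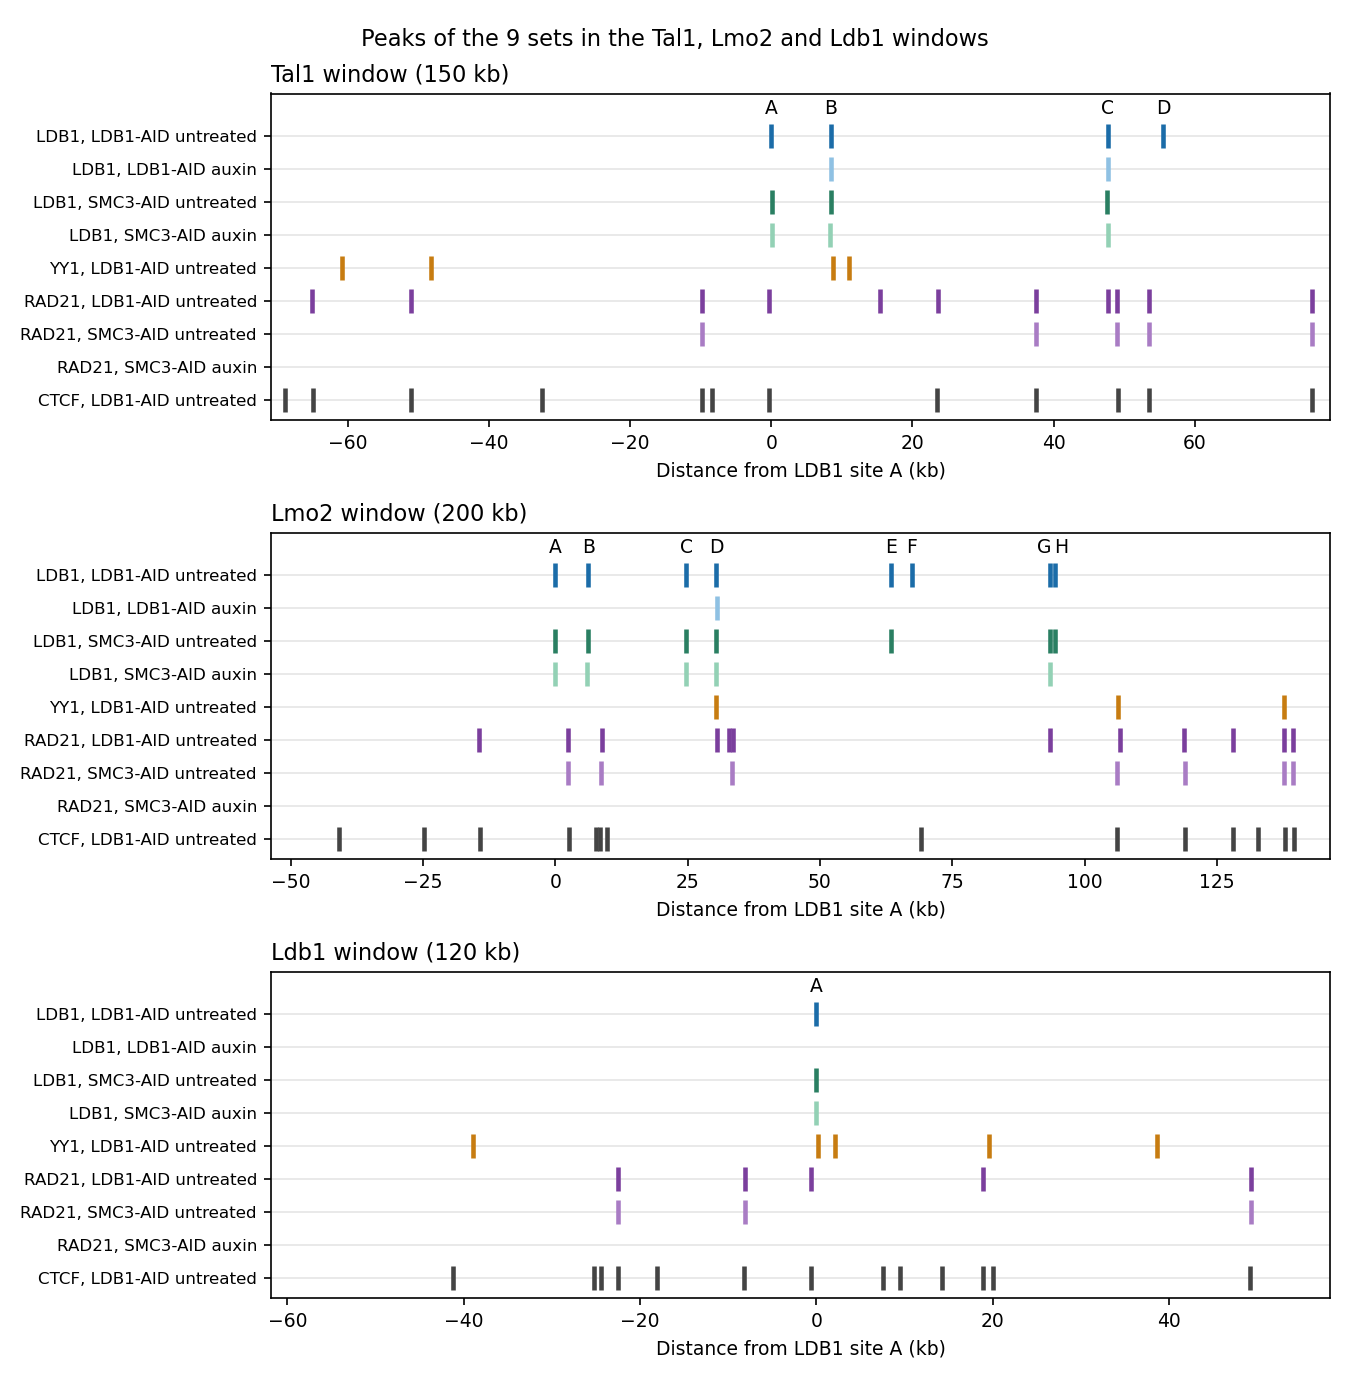
Positions of all 130 peaks in the Tal1, Lmo2 and Ldb1 windows, as distance in kb from the first LDB1 site of each window (x axis), with 1 row per peak set and letters above the LDB1 sites. In untreated LDB1-AID cells LDB1 sites stand in pairs at Tal1 and Lmo2, and Tal1 D and Lmo2 F are absent from the other LDB1 rows. The Ldb1 window has 1 site among 13 CTCF peaks, and the row of RAD21 after auxin in SMC3-AID cells is empty.

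At Tal1, the LDB1 sites differed in which other proteins were called with them. In untreated LDB1-AID cells, site A (chr4:114720651-114721050) shared 120 bp with a RAD21 peak and 87 bp with a CTCF peak. The midpoints of both lay to its left, by 280 bp for RAD21 and 313 bp for CTCF. Site B (chr4:114729121-114729520) overlapped a YY1 peak whose midpoint was 210 bp to the right, and had no RAD21 or CTCF peak. Site C (chr4:114768321-114768720) overlapped a RAD21 peak at a midpoint distance of 76 bp and had no YY1 peak, and its nearest CTCF peak was 1.5 kb away. Site D (chr4:114776171-114776570) had none of the 3 proteins, and its nearest RAD21 and CTCF peaks were 1.95 and 1.97 kb away. By the rule of 1 shared bp the 4 Tal1 sites thus differed in their partners. Under a rule of at least 50% of both peaks, only the RAD21 peak at site C would count.

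At Lmo2, 6 of the 8 LDB1 sites had none of YY1, RAD21 and CTCF, or 75% (34.9 to 96.8), against 61.5% of all LDB1 peaks. Site D (chr2:103733899-103734298) was the only one of the 13 sites with both YY1 and RAD21. Over all, 966 of 10729 LDB1 peaks had both. At site D the midpoints lay 50 bp to the left for YY1 and 20 bp to the right for RAD21. Site G (chr2:103796985-103797384) had a RAD21 peak 22 bp from its midpoint and no YY1. Site H (chr2:103797857-103798256), 872 bp to the right of G, had neither. Sites A (chr2:103703453-103703852), B (chr2:103709663-103710062) and C (chr2:103728200-103728599) stood alone, as did E (chr2:103766865-103767264) and F (chr2:103770851-103771250). No LDB1 site at Lmo2 overlapped a CTCF peak, and the nearest CTCF peak was between 1.41 kb (site B) and 20.6 kb (site D) away.

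The site at Ldb1 (chr19:46111599-46111998) overlapped a YY1 peak, with the midpoint of YY1 138 bp to the right. It shared no base with RAD21 or CTCF, but a RAD21 and a CTCF peak that overlapped each other lay 622 and 596 bp to its left.

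Over the 3 loci, a YY1 peak was present at 3 of 13 LDB1 sites, or 23.1% (5.04 to 53.8), against 20.4% of all LDB1 peaks. RAD21 was present at 4, or 30.8% (9.09 to 61.4), against 25.1%. CTCF was present at 1, or 7.69% (0.195 to 36), against 7.4%. This 1 site, Tal1 A, does not count under the rule of at least 50% of both peaks, by which 3.83% of all LDB1 peaks carried CTCF. With a gap of up to 1 kb 2 sites count, against 19.8%. At Tal1 A the LDB1 peak of untreated SMC3-AID cells shared no base with a CTCF peak, while that of auxin-treated SMC3-AID cells did. None of the 3 was called at 7 sites, or 53.8% (25.1 to 80.8), against 61.5%. By the rule of 1 bp these shares lay near those of LDB1 peaks in general, with intervals that 13 sites leave wide.

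**Figure D3:**
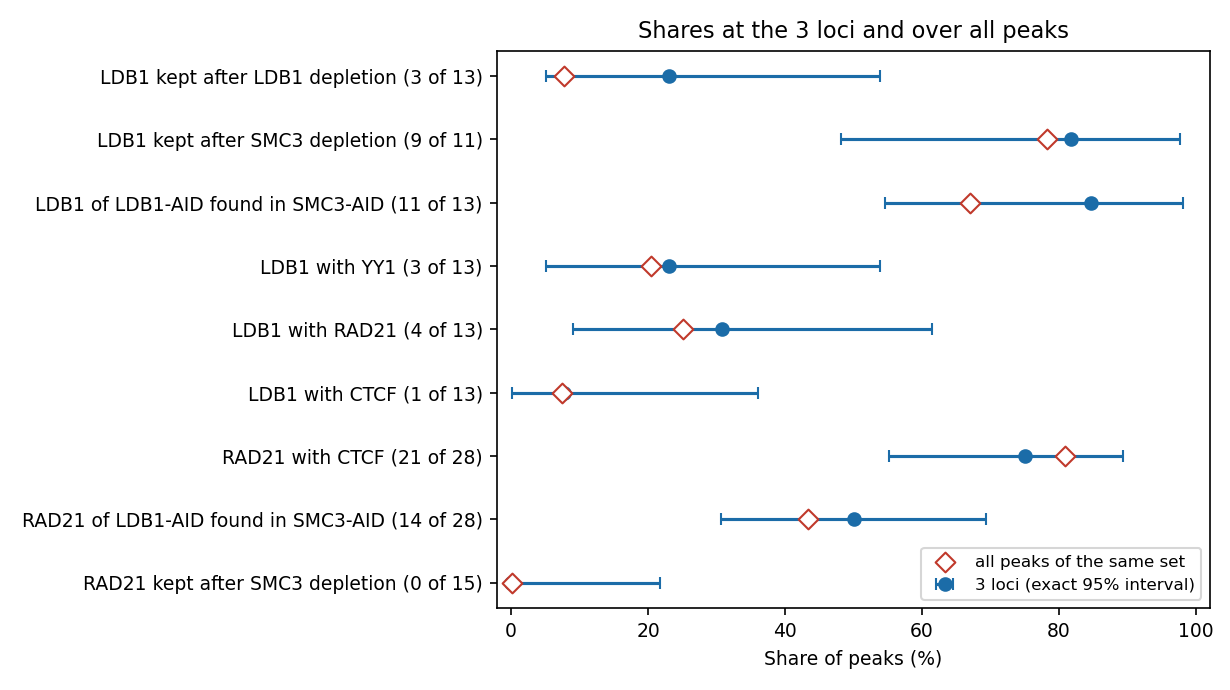
Share of peaks (%) that meet each condition at the 3 loci (blue points with exact 95% intervals, counts beside the labels) and over all peaks of the same set on the main chromosomes (open red diamonds). All 9 diamonds fall within the intervals of the loci; the furthest apart are the points for LDB1 kept in LDB1-AID cells, 23.1% and 7.77%, and for LDB1 found in both sublines, 84.6% and 67%.

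After 4 h of auxin in LDB1-AID cells, which degrades LDB1 itself, 3 of the 13 sites were still called, and 10 were not. This was 23.1% (5.04 to 53.8), against 7.77% of all LDB1 peaks of these cells. The 3 sites were Tal1 B, Tal1 C and Lmo2 D. Their auxin peaks lay almost on the untreated ones, with midpoints displaced by 30, 8 and 68 bp. At Tal1, 2 of 4 sites were thus kept, at Lmo2 1 of 8 and at Ldb1 0 of 1. The kept site of each close pair at Tal1 was an inner one, with the 39.2 kb gap between the 2.

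In untreated LDB1-AID cells the kept sites each carried YY1 or RAD21: YY1 at Tal1 B, RAD21 at Tal1 C and both at Lmo2 D. The sets held no YY1 or RAD21 peaks after LDB1 depletion, so these proteins are given for untreated cells only. Of the 6 sites with either protein, 3 were kept (50%, 11.8 to 88.2), against 15.8% of the 3921 LDB1 peaks of this kind. Lmo2 D was the 1 site with both, of which 27.4% were kept over all 966 such peaks. The 3 others were Tal1 A, Lmo2 G and Ldb1 A. Of the 7 sites with neither, 0 were kept (exact interval 0 to 41, and up to 42.9% by the limit of 3 counts), against 3.13% of 6808 such peaks. A difference between the 2 kinds of site had been seen over all peaks before these loci were chosen, so the loci are no independent evidence of it.

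After 4 h of auxin in SMC3-AID cells, in which the degron is on SMC3, LDB1 was still called at 9 of the 11 sites of the untreated cells, or 81.8% (48.2 to 97.7). The share over all LDB1 peaks of these cells was 78.2%. All 3 sites at Tal1 and the site at Ldb1 were kept, and 5 of 7 at Lmo2. The 2 that were not called after auxin were Lmo2 E and Lmo2 H, neither of which had a YY1, RAD21 or CTCF peak. Of the sites with YY1 or RAD21 in LDB1-AID cells, 6 of 6 were kept (54.1 to 100), against 88.7% of 2922 such peaks. Of the sites with neither, 3 of 5 were kept, or 60% (14.7 to 94.7), against 79.6% of 4270. Lmo2 G and H, 872 bp apart, differed in this respect, since G was kept and H was not. The RAD21 peak at G was of LDB1-AID cells, and no RAD21 peak of SMC3-AID cells overlapped either site.

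RAD21 itself was not called at any of the loci after SMC3 depletion. Of 15 RAD21 peaks of untreated SMC3-AID cells, 0 were kept (exact interval 0 to 21.8, and up to 20% by the limit of 3 counts), against 0.092% of 15223. By window these were 0 of 5 at Tal1, 0 of 7 at Lmo2 and 0 of 3 at Ldb1.

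The calls in the 4 LDB1 sets were nested at all 13 sites. The 3 sites kept after LDB1 depletion were called in every LDB1 set, as were 6.5% of all LDB1 peaks of untreated LDB1-AID cells. A further 6 (Tal1 A, Lmo2 A, B, C and G, and Ldb1 A) were called in all but the auxin set of LDB1-AID cells, as were 49.4% of all. Lmo2 E and H were called in the untreated sets of both sublines only, as were 11% of all. Tal1 D and Lmo2 F were called in untreated LDB1-AID cells only, which was the case for 28.9% of all LDB1 peaks of these cells. Over all LDB1 peaks, 95.7% followed 1 of these 4 patterns, so nesting is the rule in these sets. The sets also differed in size, from 10729 LDB1 peaks in untreated LDB1-AID cells through 8585 and 7237 in untreated and auxin-treated SMC3-AID cells to 1043 in auxin-treated LDB1-AID cells. The part of set size in the nesting was not tested.

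**Figure D4:**
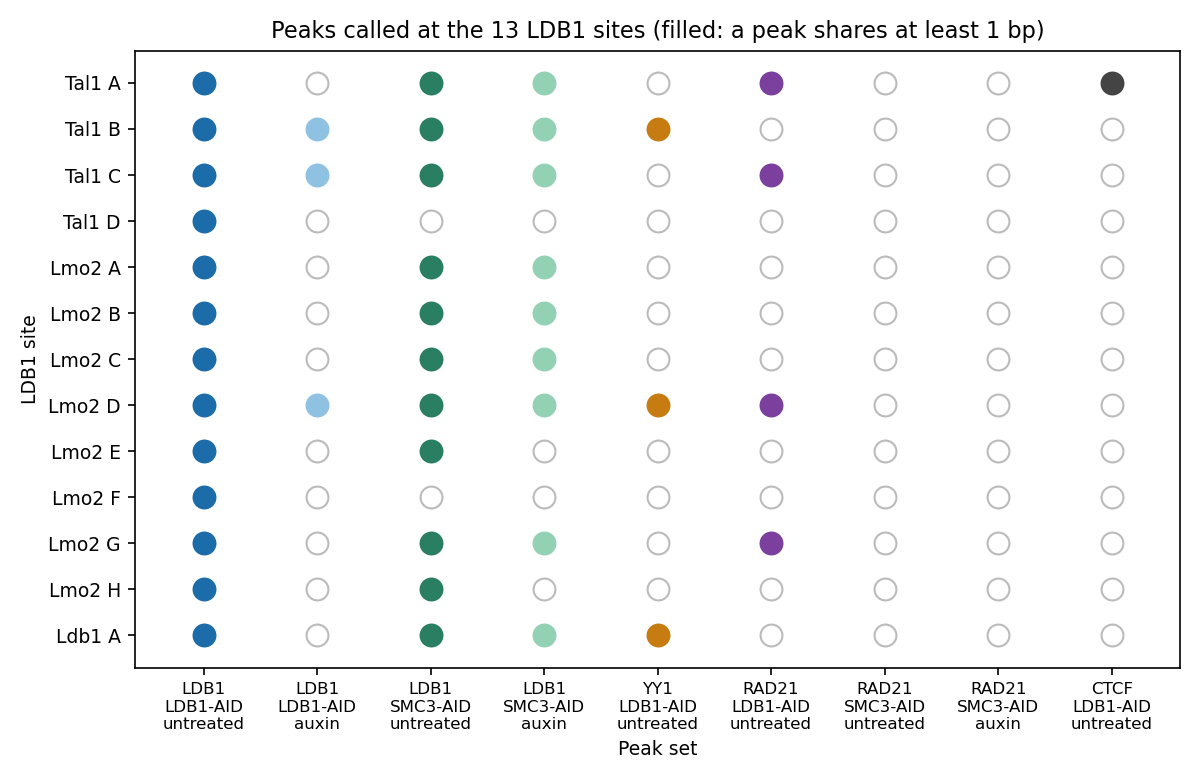
Calls at the 13 LDB1 sites (rows) in the 9 peak sets (columns); a filled circle is a peak that shares at least 1 bp with the LDB1 peak of untreated LDB1-AID cells, an open circle is no such peak. Only Tal1 B, Tal1 C and Lmo2 D are filled in the auxin column of LDB1-AID cells, and both RAD21 columns of SMC3-AID cells are empty at every site.

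The untreated sublines shared most LDB1 sites of the loci. Of the 13 sites, 11 were found in SMC3-AID cells, or 84.6% (54.6 to 98.1), against 67% of all LDB1 peaks. In reverse, all 11 SMC3-AID peaks had a counterpart, against 84.1% of all such peaks. The midpoints of the 11 pairs were between 4 bp (Tal1 B) and 104 bp (Tal1 A) apart, with a median of 15 bp, against 25 bp over all shared LDB1 peaks. After SMC3 depletion the 9 midpoints lay between 8 bp (Lmo2 D) and 212 bp (Lmo2 B) from those of untreated LDB1-AID cells, with a median of 23 bp, against 28 bp over all. At Lmo2 B the untreated SMC3-AID peak lay 65 bp to the left.

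RAD21 calls at the LDB1 sites differed between the sublines. The 4 RAD21 peaks of LDB1-AID cells at Tal1 A, Tal1 C, Lmo2 D and Lmo2 G were not called in untreated SMC3-AID cells. For this 0 of 4 the exact interval was 0 to 60.2, and up to 75% by the limit of 3 counts. Of all 28 RAD21 peaks of the windows 14 were found there, or 50% (30.6 to 69.4), against 43.4% of all RAD21 peaks. Of the 24 away from LDB1 these were the same 14, or 58.3% (36.6 to 77.9). Over all RAD21 peaks, 18% of the 2701 with LDB1 and 45.6% of the 30459 without were found in the smaller SMC3-AID set. In untreated SMC3-AID cells, 0 of the 15 RAD21 peaks at the loci overlapped an LDB1 peak of the same cells, against 2.94% of all. The exact interval was 0 to 21.8, and up to 20% by the limit of 3 counts. The count of LDB1 sites with cohesin at these genes was therefore 4 with the RAD21 set of LDB1-AID cells and 0 with that of SMC3-AID cells. Counted as pairs of peaks, the 10729 LDB1 peaks of LDB1-AID cells made 2702 overlaps with the first RAD21 set and 507 with the second. The part of set size in these differences, 33160 against 15223 peaks, was not tested.

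Away from LDB1, RAD21 mostly lay on CTCF. Untreated LDB1-AID cells had 11 RAD21 peaks at Tal1, 12 at Lmo2 and 5 at Ldb1. The RAD21 count of the Tal1 window was reached by 1.45% of bins of its length, that of the Lmo2 window by 2.8% and that of the Ldb1 window by 10.7%. A CTCF peak was present at 21 of the 28, or 75% (55.1 to 89.3), against 80.9% of all RAD21 peaks. By window these were 9 of 11, 7 of 12 and 5 of 5. LDB1 was called at 4 of the 28, or 14.3% (4.03 to 32.7), against 8.15% of all RAD21 peaks. Of these 4, 1 carried CTCF (Tal1 A), against 23.2% of all RAD21 peaks with LDB1. Of the 24 without LDB1, 20 did, against 86%. By the rule of 1 shared bp, the 4 RAD21 peaks with neither LDB1 nor CTCF were chr4:114736087-114736486 at Tal1, and chr2:103736235-103736634, chr2:103736951-103737350 and chr2:103810100-103810499 at Lmo2. Of these, chr2:103736951-103737350 was also called in untreated SMC3-AID cells, and chr2:103810100-103810499 lay within 1 kb of the CTCF peak chr2:103809538-103809937. With a gap of up to 1 kb, 22 of the 28 RAD21 peaks carried CTCF, against 85.8% of all. Of the 15 RAD21 peaks of untreated SMC3-AID cells, 14 carried CTCF (93.3%, 68.1 to 99.8), against 92.3% of all, and 14 were found in LDB1-AID cells, against 94.6%.

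CTCF peaks were present in all 3 windows, 12 at Tal1, 14 at Lmo2 and 13 at Ldb1. The count of the Ldb1 window was reached by 1.76% of bins, that of Tal1 by 5.14% and that of Lmo2 by 7.04%. RAD21 was called at 9, 7 and 5 of these, in total at 21 of 39 (53.8%, 37.2 to 69.9), against 49.5% of all CTCF peaks. At Tal1, the nearest CTCF peaks with RAD21 outside the LDB1 sites lay 9.87 kb left of site A (chr4:114710777-114711176) and 21.2 kb right of site D (chr4:114797347-114797746). Both were also RAD21 peaks in untreated SMC3-AID cells. Between them lay 5 CTCF peaks with RAD21, of which 1 was at site A. At Lmo2 the corresponding peaks lay 14.2 kb left of site A (chr2:103689245-103689644) and 24.6 kb right of site H (chr2:103822461-103822860). Between them lay 2 further CTCF peaks with RAD21, 1 between sites A and B and 1 between B and C, and none from site C to site H. The right one of the outer peaks was also a RAD21 peak in untreated SMC3-AID cells and the left one was not. With the RAD21 set of SMC3-AID cells a nearer CTCF peak to the right of site H, chr2:103809538-103809937, carried RAD21. At Ldb1 they lay 0.596 kb to the left (chr19:46111003-46111402) and 18.9 kb to the right (chr19:46130467-46130866), and neither was a RAD21 peak in untreated SMC3-AID cells.

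YY1 showed another order of the loci, with 5 peaks at Ldb1, 4 at Tal1 and 3 at Lmo2. The count of the Ldb1 window was reached by 2.39% of bins of its length, against 6.15% for Tal1 and 14.4% for Lmo2. LDB1 was called at 1 YY1 peak in each window, in total at 3 of 12 (25%, 5.49 to 57.2), against 17.1% of all YY1 peaks. The 2 YY1 peaks at Lmo2 without LDB1 (chr2:103809689-103810088 and chr2:103841176-103841575) each overlapped a CTCF peak. No YY1 peak at Tal1 or Ldb1 overlapped CTCF. Over the 3 loci this was 2 of 12 YY1 peaks, or 16.7% (2.09 to 48.4), against 17.1% of all YY1 peaks. At Tal1 a second YY1 peak (chr4:114731711-114732110) lay to the right of the one at site B, and at Ldb1 a second (chr19:46113713-46114112) lay to the right of the one at site A. The locus with the fewest LDB1 peaks thus had the most YY1 peaks.

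No peak was assigned to an exon, an intron or an untranslated region, since no mm9 annotation was used. In the order of genes that RefSeq gives, the nearest protein-coding neighbours are Stil and Pdzk1ip1 for Tal1, Caprin1 and 4931422A03Rik for Lmo2, and Hps6 and Pprc1 for Ldb1. The sites of a window were therefore named for the window and not assigned to a gene.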

How the data were processed

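The authors deposited each peak set as a list of intervals (chromosome, start and end in bp) with no count, score or signal, in which the 2 or 3 replicates of a group had already been combined. Per the submitters' processing notes, the build was mm9 and Bowtie2, deepTools 3.5.1 and MACS2 2.2.9.1 were used, with no role given. The rule that made the consensus is not given in the sources used here. The 9 sets cover 22 of 65 samples, grouped by title, and the other 43 were not analysed here. Positions are counted from 1.

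Peaks on chromosomes 1 to 19, X and Y were compared with Python 3.11.15, and a peak was shared when at least 1 bp was in common. Over 72 pairs of sets the counts differed from those of bedtools 2.31.1 by 0 peaks, and the functions were tested on simulated data. Intervals came from SciPy 1.17.1. An LDB1 site is a group of LDB1 peaks with shared bases, and every LDB1 site in the windows is named. Bins ran from the first base of each chromosome to the last peak of any set and counted midpoints. The members, lists and comparisons were chosen with earlier results of these data known. Alternatives were other overlap rules, wider and narrower windows and the other subline. LDB1 peaks near other genes of the complex, which were to be counted on an mm9 annotation, were not counted.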

Additional observations from a re-analysis of the deposited data

How the results depend on the processing

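For 11 counts, 51 alternative values were computed, and 48 stayed within 1.5 times the reported count. The 1 LDB1 site with CTCF became 0 under the rule of 50% of each peak shared, and 2 under the rule that peaks up to 1 kb apart count. At the very edge of 1.5 times, 6 of 13 LDB1 sites had RAD21 under the 1 kb rule (46.2%, against 32.1% of all). YY1 was at 2 of 13 under the 50% rule (15.4%, against 15%). With the RAD21 peaks of untreated SMC3-AID cells, which made 507 overlaps with all 10729 LDB1 peaks, LDB1 sites with RAD21 numbered 0, against 4. This alternative was added with the data known. The cause was not tested, although that set is smaller. The count of 3 sites kept after LDB1 depletion was the same under all 5 alternatives, among them windows widened by 50 kb or narrowed by 25 kb on each side. The count of 9 kept after SMC3 depletion was the same under 4 and was 10 with the rule of up to 1 kb. No paired analysis was possible because the replicates were combined before deposit and no result comes from a test, and for the same reason no replicate could be left out. Read depth is unknown and limits every statement about a peak that was not called.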

Other observations

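Beyond the edges of the windows, the nearest 50 kb on each side held 1 more LDB1 peak, at chr2:103869211-103869610, which lies 19.2 kb to the right of the Lmo2 window. It was called in untreated LDB1-AID cells and in no other LDB1 set.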
